A study of Mus musculus with 10 samples.

Results

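Cells of the proximal straight tubule, the S3 segment, were picked out of droplet single-cell libraries of mouse kidney cortex by the transporter gene Slc7a13. A barcode was kept when it had at least 500 detected genes and at most 50% of its unique molecular identifiers (UMIs, 1 per captured RNA molecule) from mitochondrial genes. A kept cell was a member when it held at least 2 UMIs of Slc7a13 and 0 UMIs of Slc5a2 and Slc5a12 (sodium-coupled transporters of the convoluted tubule), Havcr1 (an injury gene of proximal cells), Slc12a1 (the thick ascending limb's salt transporter) and Ptprc (CD45, of white blood cells). By this rule 6437 of 52797 kept cells were members. The choice rests on measured counts, so the levels of these 6 genes are given as a description and were not tested.

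The proximal tubule takes back most of what the glomerulus filters and runs from convoluted segments S1 and S2 into the straight segment S3. S3 cells carry basolateral organic anion transporters that load drugs and metabolites into the urine, and they are rich in peroxisomes and in enzymes of fatty acid oxidation and glutathione metabolism. They depend on oxidative metabolism and are among the nephron cells most easily lost in acute kidney injury. Slc7a13, an amino acid transporter, is restricted to S3 in the mouse kidney.

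The series has 10 libraries, all from the renal cortex of mice at 4 weeks of age: 1 from a normal kidney and the others from injured kidneys 1, 2, 4, 7, 11 and 14 days after the injury. Days 7, 11 and 14 have 2 libraries each and the other groups have 1. The labels used here give no kind of injury, strain, sex or batch, and they do not say whether the libraries of a day come from separate animals, so that p-values may measure a technical spread. The lone control library and the lone day 7 library with enough members were assumed to vary like the days with 2 libraries.

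The kept cells numbered 3568 to 6941 per library, with a median of 1244 to 2661.5 UMIs. No member barcode was shared by 2 libraries. The deposited day 11 tables went down to 300 genes per barcode and those of the other days to 500, and the members of the control were the deepest among the libraries with over 10 members, with a median of 4557 UMIs against 1839 and 1662 at day 11 and 2768 and 2654.5 at day 14. The median mitochondrial share of a member's UMIs was 22.8% in the control, 7.67% at day 4, 14.8% and 11.1% at day 11 and 14.2% and 15.4% at day 14.

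The libraries also fell into 2 sets that did not follow the days. In the kept cells without any Slc7a13 UMI, a set that shares no cell with the members, the transcript BC018473 stood at 121 CPM (counts scaled to a common library total) in the control and at 50.5 and 36.6 at day 11, and at no more than 3.11 in each of the other 7 libraries. Cwc22, a splicing factor gene, went the other way, with 17.3 in the control, 12.2 and 10.5 at day 11 and between 119 and 485 in the other libraries. The peptide transporter gene Slc15a2 stood at 18.2 in the control, 13.1 and 13.4 at day 11 and 26.7 to 84.5 elsewhere, and the class I histocompatibility gene H2-K1 at 115 in the control, 222 and 163 at day 11 and 331 to 1864 elsewhere. These values separate the control and day 11 from days 1, 2, 4, 7 and 14. A difference in mouse stock or batch that follows this split cannot be told apart from the day in any comparison that crosses it. The comparison of day 11 with the control does not cross it, but these libraries also differed from each other in the same cells. Gm20417 stood there at 163 CPM in the control and 10.7 and 5.88 at day 11, and Gstp1 at 96.3, 254 and 280. A stock or batch difference between the control and day 11 cannot be told apart from the day either.

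The rule's own values differed by day. Slc7a13 stood in the members at 1140.0 scaled CPM in the control, 2073 at day 4, 1614 in the second day 7 library, 1887.5 and 1963 at day 11 and 2029 and 1916 at day 14 (scaled CPM are summed counts as CPM after library scaling by the trimmed mean of M values, TMM). In the control, 233 members (22.1%) had exactly 2 Slc7a13 UMIs, just inside the rule, with 3195 CPM of the S3 marker Cyp4b1, 856 of Slc22a6 and 111 of the convoluted marker Gatm. The 400 control cells just outside it, with exactly 1 UMI, had 2265, 580.1 and 280 CPM. Gatm was closer across the cut at the late days, with 260.4 CPM inside and 303 outside, and 240.4 and 320.3, in the day 11 libraries, and 485 and 469.6, and 552 and 546, in those of day 14. Members with exactly 2 UMIs made up 38.8% and 34.1% at day 11 and 18.2% and 21.5% at day 14. Of the 9940 kept cells with at least 2 Slc7a13 UMIs, 64.8% were members. Over all libraries Slc5a2 removed 21.5% of them, Slc12a1 11.4%, Slc5a12 8.84%, Havcr1 3.97% and Ptprc 0.865%. These shares differed by day. Slc5a2 removed 13.7% in the control, 8.30% and 11.3% at day 11 and 25.01% and 29.3% at day 14. Slc12a1 removed 22.9% in the control, 8.91% and 7.13% at day 11 and 8.50% and 11.97% at day 14. At day 4, 217 of 535 cells with at least 2 Slc7a13 UMIs (40.6%) held Havcr1. At day 1, 17 of 18 did, so that the rule takes fewer injured cells at the early days.

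Cells that should lack Slc7a13 gave the rule's background; free RNA and doublets cannot be told apart in it. Among cells with endothelial markers, 5 of 277 (1.81%, median depth 1501 UMIs) passed the rule in the control and 9 of 241 (3.73%, median depth 1106 UMIs) in the first day 14 library. At day 4 it was 1 of 133 (0.752%) and at day 2, 1 of 305 (0.328%), and in the second day 7 library 3 of 1403 cells with macrophage complement genes (0.214%) passed. The day 2 share of members given next was below its library's level, but that level rests on 1 cell. At day 2, 0 of 101 cells with macrophage complement genes passed. Whether the day 2 share lay above background was not settled by these cells. In the first day 7 library 0 of 1015 cells with macrophage complement genes and 0 of 138 with endothelial markers passed, and its 1 member gives no level. The day 4 share was above its library's level, which rests on 1 cell. In the second day 7 library 0 of 301 cells with endothelial markers passed. Of its 1403 cells with macrophage complement genes, 9 (0.641%) held at least 2 Slc7a13 UMIs. The rule's other terms, Ptprc among them, removed most of these 9. Whether the share of that library lay above background was not settled by these cells.

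Members made up 17.2% of kept cells in the control (1053 of 6134, exact 95% interval 16.2% to 18.1%), and almost none were found on day 1 (0 of 3568, which allows a share of up to 0.0841%) and day 2 (6 of 4087, 0.147%). At day 4 the share was 2.34% (150 of 6417, 1.98% to 2.74%). At day 7 it was 0.0276% (1 of 3621) in the first library and 0.795% (41 of 5154, 0.571% to 1.08%) in the second. Day 11 had 17.0% (919 of 5409) and 25.1% (1326 of 5283), and day 14 had 25.3% (1757 of 6941) and 19.1% (1184 of 6183). The means were 0.412% ± 0.543 at day 7, 21.0% ± 5.73 at day 11 and 22.2% ± 4.36 at day 14 (SD, n = 2). The control thus lay at the lower end of the day 11 and day 14 libraries, and each library of days 1 to 7 lay far below all of these. Before the exclusion genes were applied, cells with at least 2 Slc7a13 UMIs were 26.7% of kept cells in the control. They were 20.9% and 31.1% at day 11 and 40.2% and 32.8% at day 14. By either share the control lay above the first day 11 library and below the other libraries of these days. Intervals cover counting error only, and with 1 or 2 libraries a group no permutation test can reach 0.05.

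The share depends on depth, since a shallow cell can miss the second Slc7a13 UMI. It can also miss a UMI of an exclusion gene and so pass the rule. With each cell thinned to 1000 UMIs and the rule applied to the thinned counts, which left out 5.85% to 35.2% of kept cells per library (359 in the control, 1274 in the first day 7 library), members were 7.58% of cells in the control, 0.0371% at day 1, 0.0619% at day 2, 3.65% at day 4, 0.0852% and 0.754% at day 7, 11.6% and 19.9% at day 11 and 20.5% and 15.4% at day 14. On thinned counts each library of days 11 and 14 lay above the control. At day 4, 180 cells passed on thinned counts and 150 on full counts, so thinning also let in cells barred at full depth. The thinned shares are thus not a plain correction for depth. Over all kept cells, with no rule, Slc7a13 stood at 393 CPM in the control, 11.6 at day 1, 18.2 at day 2, 274 at day 4, 5.08 and 63.3 at day 7, 479 and 750.4 at day 11 and 1029 and 821 at day 14. Day 4 was thus closer to the control by Slc7a13 RNA than by the share of members. Fewer cells of a type and less RNA per cell cannot be told apart in these levels.

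**Figure D1:**
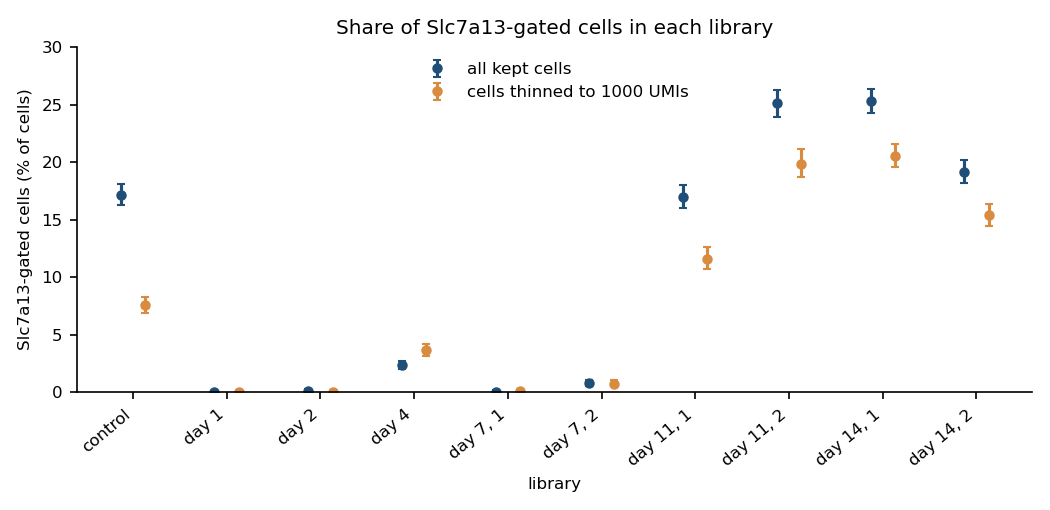
Share of kept cells (percent, vertical axis) that passed the Slc7a13 rule in each of the 10 libraries, over all kept cells and after thinning to 1000 UMIs, with exact 95% intervals. The control stands at 17.2% before and 7.58% after thinning, days 1 to 7 stay at or below 3.65%, and days 11 and 14 lie between 11.6% and 25.3%.

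The members carried the S3 programme wherever there were enough of them to sum. They were set beside the convoluted cells of the same libraries, defined by at least 2 UMIs of Slc5a2 and Slc5a12 together and 0 of Slc7a13, Havcr1, Slc12a1 and Ptprc (4486 cells). Of 19 S3 marker genes outside the rule, 16 were higher in the members in all 7 libraries with at least 10 members, and 0 were lower in all 7. Of 13 markers of S1 and S2, 7 were lower in all 7 libraries, and 2 were higher, Cyp2e1 and Slc13a3. These are descriptions, since the rule chose both kinds of cell by segment genes. In the control, Napsa, an aspartic protease, stood at 1238 scaled CPM in the members and 63.7 in convoluted cells. Slc22a7, the organic anion transporter OAT2, stood at 223 and 4.61, and Cyp7b1, an oxysterol hydroxylase, at 165 and 1.85. Gatm, the first enzyme of creatine synthesis and a convoluted gene, stood at 89.1 and 2452, and the phosphate transporter Slc34a3 at 1.10 and 24.0. The markers of the label were thus present in the members, and 20 of 31 solute transporters (7 of which are also on the S3 list) and 16 of 25 peroxisomal genes were higher in the members in all 7 libraries, with 4 and 2 lower in all 7. Of all 11248 genes tested for both kinds, 14.8% were higher in all 7 libraries and 9.74% lower.

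**Figure D2:**
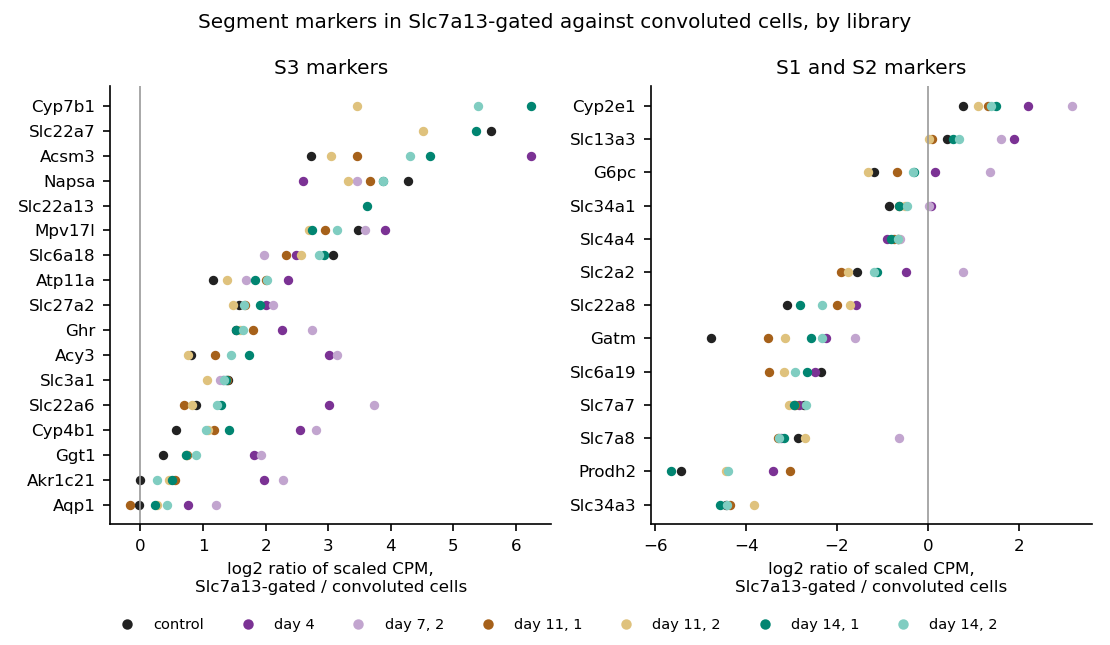
Log2 ratio of summed scaled CPM in Slc7a13-gated cells to that in convoluted cells (horizontal axis) for S3 markers and for S1 and S2 markers in each library. Most S3 markers lie to the right of 0 and most S1 and S2 markers to the left. Of 19 S3 markers, 16 were higher in all 7 libraries. Serpina1f and Bcat1, with too few counts in convoluted cells, are not drawn.

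A Cyp4b1 UMI was found in 94.0% of control members, 91.3% at day 4, 82.9% in the second day 7 library, 96.8% and 98.6% at day 11 and 96.9% and 95.02% at day 14. Free RNA gives UMIs in cells that do not express a gene, so the shares were set beside kept cells outside the rule with at least 2 UMIs of the endothelial genes Emcn, Cdh5 and Pecam1. These had a median of 1496 UMIs in the control, 1096 and 1082.5 at day 11 and 1100.5 and 1088 at day 14. Of them 56.6% held a Cyp4b1 UMI in the control, 68.8% and 73.4% at day 11 and 61.6% and 63.5% at day 14. Members at 1000 UMIs a cell, here and below, are the cells that passed the rule on thinned counts. They numbered 438 in the control, 527 and 828 at day 11 and 1271 and 860 at day 14. The endothelial-marker cells were chosen on full counts and then thinned. At 1000 UMIs a cell, Cyp4b1 was found in 88.6% of members and 44.8% of endothelial-marker cells in the control, 94.3% against 60.6% and 96.7% against 67.5% at day 11, and 93.5% against 48.1% and 88.5% against 51.5% at day 14. The members' share was thus above that background at equal depth in these 5 libraries, but the background itself was high. Per 10000 UMIs of a cell, Cyp4b1 ran from 7.19 at the 10th percentile over 31.1 at the median to 53.6 at the 90th in the control, and from 10.5 over 47.0 to 86.1 in the first day 14 library. Slc22a6, the organic anion transporter OAT1, was found in 82.7% of control members, 64.9% and 69.2% at day 11 and 81.7% and 80.6% at day 14; at 1000 UMIs a cell the shares were 48.2%, 48.4% and 52.2%, and 62.7% and 65.2%, against 8.52%, 2.35% and 8.55%, and 11.1% and 14.9%, of endothelial-marker cells. At equal depth the day 11 shares lay near the control's and still below those of day 14. Cyp4b1 lies on chromosome 4 at 115624725 to 115647723 (minus strand), Slc22a6 on chromosome 19 at 8618039 to 8628299 (plus strand) and Slc7a13 on chromosome 4 at 19818725 to 19842218 (plus strand), in the mm10 build.

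Gene levels were compared over summed counts of the members of each library by the quasi-likelihood test of edgeR; p-values were adjusted by Benjamini-Hochberg over 11653 genes at a threshold of 0.05. The fit took the 7 libraries with at least 10 members: the control, day 4, the second day 7 library and both libraries of days 11 and 14. The day 11 and day 14 comparisons with the control share its 1 library. A set of list genes and of genes with the largest changes, not all of them given here, was followed through every alternative setting run: 34 of 54 called between day 11 and the control, 26 of 60 between day 14 and the control and 19 of 36 between days 14 and 11 kept the call in all of them. For day 11 against day 7 it was 0 of 21, and for the differences from convoluted cells 4 of 18 at day 11 and 6 of 18 at day 14.

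Against the control, day 11 members had more immediate early and heat shock genes higher than lower and 11 of 19 glycolysis genes higher, while the endocytosis receptor gene Lrp2 and the organic anion carrier gene Slco1a1 were lower. In this comparison 27.6% of all genes were called, 14.1% higher and 13.5% lower, with a median log2 change of 0.08 over all genes tested. Of 23 immediate early and heat shock genes, 13 rose and 5 fell (median 1.08). Hspa1a, the inducible heat shock protein 70, stood at 26.7 scaled CPM in the control and at 218 and 179 at day 11, and rose by 2.89 ± 0.23 on the log2 scale (SE; adjusted p = 0.000387). At 1000 UMIs a cell, 2.97% of control members and 14.4% and 10.1% of day 11 members held an Hspa1a UMI. The cells without Slc7a13 had 61.2 CPM of Hspa1a in the control and 397 and 354 at day 11, so this rise was not limited to the members. Hspb1, a small heat shock protein, went from 20.8 to 93.6 and 81.3 (2.06 ± 0.34, adjusted p = 0.00286). The activator protein gene Fos went from 155 to 400.5 and 514 (1.56 ± 0.21, adjusted p = 0.0014). Hsp90aa1, a chaperone of the same list, fell from 2265 to 1060.5 and 912 (-1.20 ± 0.16, adjusted p = 0.00122). The list thus moved in both directions; Fos and Hspa1a lay above the control in both day 11 libraries and Hsp90aa1 below it. Hspa1a (chromosome 17, 34969190 to 34972156, minus strand) overlaps a gene on the other strand, and the strand of counting is not given in the sources used here.

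Of 19 glycolysis and gluconeogenesis genes tested at day 11, 11 rose and 0 fell, with a median of 0.77. Gapdh stood at 74.7 scaled CPM in the control and 237 and 327 at day 11 (1.92 ± 0.25, adjusted p = 0.00132), and Eno1, enolase, at 91.5, 207 and 291 (1.45 ± 0.24, adjusted p = 0.00305). Ldha, which turns pyruvate into lactate, went from 329 to 672 and 728 (1.09 ± 0.17, adjusted p = 0.00224). Both day 11 libraries lay above the control for these 3 genes.

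Genes of receptor-mediated endocytosis split at day 11. Of 12 tested, 5 rose and 3 fell, with a median of 0.45. The receptors and the endosomal chloride exchanger were the ones that fell. Lrp2, megalin, the main receptor for filtered proteins, stood at 1887 scaled CPM in the control and 754 and 644 at day 11 (-1.43 ± 0.15, adjusted p = 0.00075). Clcn5, an endosomal chloride-proton exchanger, stood at 109, 49.5 and 41.7 (-1.27 ± 0.18, adjusted p = 0.0018). Cubn, cubilin, megalin's partner, stood at 73.7, 54.2 and 45.2 (-0.58 ± 0.19, adjusted p = 0.0474), a call that was lost without the second day 11 library (-0.44, adjusted p = 0.18). The regulator Hnf4a, a nuclear receptor of proximal identity, also fell, from 235 to 119.7 and 124 (-0.95 ± 0.18, adjusted p = 0.00517).

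S3 markers did not move as a body at day 11: of 19, 3 rose (Cyp4b1, Napsa, Akr1c21) and 3 fell (Mpv17l, Acsm3, Atp11a), with a median of 0.04. Napsa stood at 1174 scaled CPM in the control and 2290.1 and 2138 at day 11 (0.92 ± 0.15, adjusted p = 0.00274). The steroid dehydrogenase Akr1c21 stood at 597, 1644 and 1627 (1.45 ± 0.17, adjusted p = 0.000989). Mpv17l, a peroxisomal membrane protein, fell from 1972 to 818 and 711 (-1.37 ± 0.17, adjusted p = 0.00109). Cyp4b1 stood at 3659, 5456 and 5791 (0.62 ± 0.15, adjusted p = 0.015), and its call was lost without the second day 11 library (adjusted p = 0.094) and stood at an adjusted p of 0.0502 without the first. Atp11a, a lipid flippase, was called lower (-0.70 ± 0.17, adjusted p = 0.0157), and was not without the second day 11 library (adjusted p = 0.091). Slc22a6, with 883 in the control and 874 and 935 at day 11, had a difference of 0.04 ± 0.15 (adjusted p = 0.881). In endothelial-marker cells outside the rule Cyp4b1 was also higher, with 818 CPM in the control and 1780 and 1546 at day 11, without TMM scaling.

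Of 31 solute transporters tested at day 11, 2 rose and 6 fell, a share near the 27.6% called over all genes. Slco1a1, an organic anion uptake carrier of male proximal cells, fell from 2152 scaled CPM to 732 and 825 (-1.47 ± 0.16, adjusted p = 0.000789). Among 25 peroxisomal genes 7 rose and 4 fell (median 0.30), led in opposite directions by Acaa1b, a peroxisomal thiolase (209 in the control, 538 and 475 at day 11; 1.28 ± 0.17, adjusted p = 0.00136), and Abcd3, a peroxisomal fatty acid importer (768, 463 and 349; -0.92 ± 0.19, adjusted p = 0.00638). Eci1, an isomerase of mitochondrial fatty acid oxidation, rose from 67.4 to 223 and 249.7 (1.81 ± 0.19, adjusted p = 0.000746), in a list of 22 of which 7 rose and 2 fell. In the glutathione list of 32 genes, 10 rose and 5 fell. Gclc, the catalytic subunit of the rate-limiting enzyme of glutathione synthesis, fell from 247 to 112 and 72.9 (-1.43 ± 0.23, adjusted p = 0.0024), while Gpx1, a glutathione peroxidase, rose from 2813 to 4848 and 4394 (0.72 ± 0.15, adjusted p = 0.00837). Odc1, which starts polyamine synthesis and is high in male kidney, fell from 2106 to 482 and 719.5 (-1.81 ± 0.27, adjusted p = 0.00207).

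Of 33 injury genes tested at day 11, 11 rose and 0 fell, with a median of 1.06, or 1.01 with genes at 0 in a group set at their bound. Krt8, a keratin of injured tubules, stood at 56.9 scaled CPM in the control and 132 and 148 at day 11 (1.30 ± 0.20, adjusted p = 0.00208). Lgals1, galectin 1, stood at 47.0, 174 and 144 (1.76 ± 0.23, adjusted p = 0.0012). Spp1, osteopontin, stood at 36.8, 149.98 and 519 (3.20 ± 0.60, adjusted p = 0.00469), but 1 cell held 65.0% of the Spp1 UMIs in the second day 11 library, and on thinned cells the difference was 0.57 (adjusted p = 0.27). Markers of several other cell types were also higher, with 3 of 7 thick limb, 2 of 5 distal tubule, 2 of 5 podocyte and 2 of 5 erythroid markers higher and 0 lower in these lists. Of 9 collecting duct markers 1 rose (median 0.15), of 7 endothelial markers 0 rose and 1 fell (median -0.78), and of 4 fibroblast and mural markers 0 were called. Of 9 macrophage markers 7 rose, and their summed level was 19.2 scaled CPM in the control, where 3 of them were at 0, and 143 and 112 at day 11. Lyz2, the macrophage lysozyme, had 1 count in the control and was 176 times as high at day 11 (95% interval for counting error 31.0 to 6979). With cells holding 10 or more UMIs of the markers of any one of 9 other cell types left out (13 of the control members and 18 and 16 at day 11), 3298 genes were called against 3211. The part of other cells' RNA in single genes was not tested.

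The largest day 11 changes among well-expressed genes, beside Lyz2 and Spp1, were upward in Cish, an inhibitor of cytokine signalling, Apoe, a lipid carrier that macrophages also make, and Cd74, the invariant chain of class II molecules. Cish stood at 2.25 scaled CPM in the control and 26.1 and 60.7 at day 11 (4.29 ± 0.68, adjusted p = 0.00241), and Apoe at 5.90, 105 and 102 (4.13 ± 0.38, adjusted p = 0.000468). Cd74 rose by 3.34 ± 0.71 (adjusted p = 0.00843), a call lost without either day 11 library (adjusted p = 0.068 and 0.062). Downward they were Gm20417 (161, then 14.9 and 4.56), the nuclear pore gene Ranbp2 (126, then 15.955 and 13.7), the kinesin gene Kif20b (556, then 70.7 and 71.2), BC018473 (182, then 32.4 and 16.8) and the chemokine gene Ccl28 (207, then 22.3 and 31.6). Their log2 changes lay between -4.16 and -2.92. Both day 11 libraries had to lie below the control for a gene to be picked here.

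**Figure D3:**
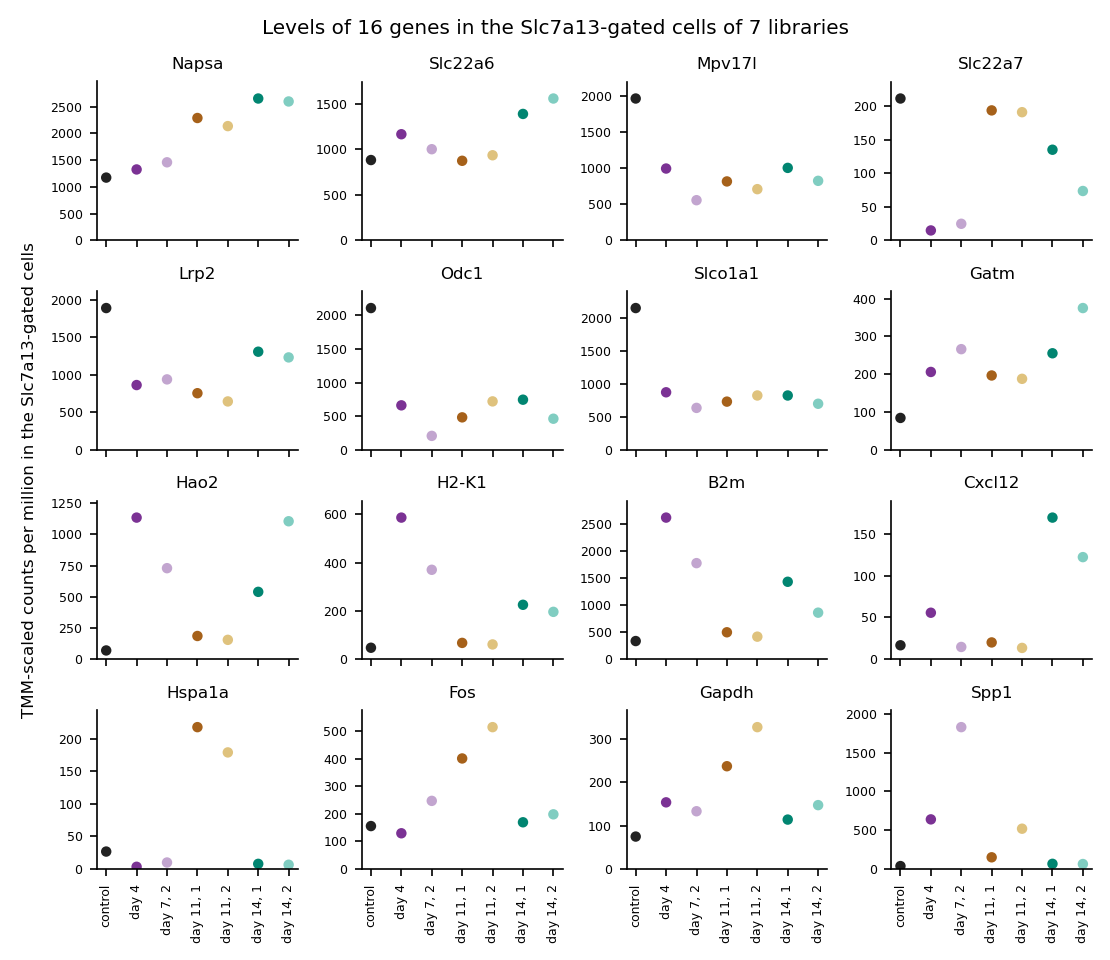
Scaled CPM (vertical axes, each starting at 0) of 16 genes in the Slc7a13-gated cells of 7 libraries, 1 point a library. Hspa1a, Fos and Gapdh are highest in both day 11 libraries, Hao2, H2-K1 and B2m are high at days 4, 7 and 14 and low in the control and at day 11, and Mpv17l, Odc1, Lrp2 and Slco1a1 are highest in the control.

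At day 14 the heat shock genes Hspa1a, Hspa1b, Hspb1 and Hsp90aa1 were below the control, and Slc22a6, Gatm, Hao2 and the class I genes H2-K1 and B2m were above it. Of the 23 immediate early and heat shock genes 6 rose and 7 fell (median 0.18). Hspa1b, a near-identical copy of Hspa1a whose reads the counting could split, went from 33.8 to 3.36 and 3.20 scaled CPM (-3.34 ± 0.28, adjusted p = 0.000359). Of all genes 16.1% were called, 7.16% higher and 8.91% lower, with a median of 0.02. Of 19 S3 markers, 5 rose and 3 fell, and the list's median was 0.37. Slc22a6 stood at 883 scaled CPM in the control and 1389.6 and 1559 at day 14 (0.74 ± 0.16, adjusted p = 0.014; 0.58, adjusted p = 0.079, on thinned cells). Napsa reached 2655 and 2600.0 (1.16 ± 0.15, adjusted p = 0.00203), and Serpina1f, a serine protease inhibitor of the S3 list, went from 11.6 to 33.5 and 52.6 (1.87 ± 0.32, adjusted p = 0.00603). Mpv17l remained below the control, at 1007 and 827 (-1.10 ± 0.17, adjusted p = 0.00359). Slc22a7 was lower, with 212 in the control and 135 and 73.7 at day 14 (-1.01 ± 0.28, adjusted p = 0.0367), a call lost without either day 11 library (adjusted p = 0.096 and 0.084) or the second day 14 library (-0.63, adjusted p = 0.11).

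Of 13 genes of the convoluted segments tested in the day 14 members, 6 rose and 0 fell, with a median of 0.82. Gatm stood at 84.4 scaled CPM in the control and 256 and 375 at day 14 (1.90 ± 0.24, adjusted p = 0.00198). Of the cells that passed the rule on counts thinned to 1000 UMIs, 7.99% in the control and 21.6% and 29.1% at day 14 held it. The endothelial-marker cells held it in 17.04%, 15.6% and 18.8%, so the control share is read as background. The day 14 shares were higher than those of the endothelial-marker cells. Thinning also removes Slc5a2 and Slc5a12 UMIs, so cells barred at full depth can pass the rule. How far such cells raised the day 14 shares of Gatm was not tested. The glucose transporter Slc2a2 went from 16.3 to 41.2 and 43.7 (1.38 ± 0.23, adjusted p = 0.00487). The cystine transporter subunit Slc7a9, of the solute transporter list, went from 16.8 to 62.2 and 76.4 (2.04 ± 0.24, adjusted p = 0.00147), and the list as a whole had 7 of 31 higher and 3 lower. Each of these genes lay above the control in both day 14 libraries. With at least 3 Slc7a13 UMIs required the difference from the control was 1.87 (adjusted p = 0.0014). Among cells with at least 2 Slc7a13 UMIs, the convoluted gene Slc5a2 was held by 13.7% in the control and 25.01% and 29.3% at day 14. The rule left these cells out, and how this bears on the rises was not tested.

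Hao2, a peroxisomal hydroxy acid oxidase, had the largest rise of the peroxisomal list at day 14. It stood at 71.4 scaled CPM in the control, 187 and 156 at day 11 and 541 and 1106 at day 14, a log2 difference of 3.52 ± 0.40 from the control (adjusted p = 0.00118). Hao2 UMIs were found in 22.5% of control members, 25.4% and 21.9% at day 11 and 64.4% and 79.2% at day 14. In endothelial-marker cells, which were shallower, the shares were 2.94%, 0.735% and 2.08%, and 9.48% and 13.2%. Hao2 lies on chromosome 3 at 98874521 to 98893239 (minus strand). In the members Hao2 was also high at day 4 (1135) and in the second day 7 library (730.3), on the same side of the library split as day 14. In the cells without Slc7a13 it stood at 61.0 CPM in the control, 50.6 at day 1, 154 at day 2, 165 at day 4, 68.1 and 46.9 at day 7, 76.7 and 71.2 at day 11 and 218 and 446 at day 14, so that there it did not follow the split. Of the 25 genes of the list 7 rose at day 14 (Acaa1a, Acaa1b, Agxt2, Hao2, Pecr, Pipox, Pxmp2) and 0 fell, and the list's median was 0.06. Acaa1b went from 209 to 441 and 429.9 (1.06 ± 0.17, adjusted p = 0.00436).

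Of 27 interferon-stimulated genes, class I genes among them, 5 were higher at day 14 and 0 lower (median 0.75), beside 16.1% of all genes called and 7.16% higher. The share of the list called lay near that of all genes, and nothing particular to the list is read from it. H2-K1 stood at 48.0 scaled CPM in the control and 225 and 196 at day 14 (2.13 ± 0.20, adjusted p = 0.000621). B2m, the light chain of class I molecules, stood at 339, 1436 and 865 (1.76 ± 0.28, adjusted p = 0.00438). At 1000 UMIs a cell, B2m was found in 22.8% of control members and 70.2% and 55.5% of day 14 members. Both genes follow the split of the libraries described above, with 586 and 370.1 of H2-K1 at days 4 and 7 and 68.1 and 61.7 at day 11. The members showed the same split in Cwc22 (12.7 in the control, 9.57 and 8.42 at day 11, 58.9 to 87.1 in the other libraries) and in BC021785, a transcript of no stated function (1156, 961 and 956, against 14.8 to 350.2). The part of that split in the day 14 differences cannot be told apart from the day. Cxcl12, a chemokine that draws leukocytes, was highest in the day 14 libraries: 16.8 in the control, 20.2 and 13.7 at day 11, 55.6 at day 4, 14.8 at day 7 and 169 and 122 at day 14 (3.11 ± 0.29, adjusted p = 0.000621).

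Some genes stood below the control at both late days. Slco1a1 was at 825 and 699 scaled CPM at day 14 (-1.50 ± 0.16, adjusted p = 0.00102) and Odc1 at 745 and 462 (-1.80 ± 0.27, adjusted p = 0.0036). Hsp90aa1 was at 778 and 703 (-1.61 ± 0.15, adjusted p = 0.000664). Lrp2, at 1306 and 1230.0, was called lower than the control (-0.57 ± 0.15, adjusted p = 0.0339), and was not without either day 14 library (adjusted p = 0.075 and 0.13). Of 33 injury genes 5 rose and 1 fell at day 14 (median 0.30, or 0.27 with bounds), among them Krt8 (122 and 143; 1.22 ± 0.20, adjusted p = 0.00452) and Lgals1 (100.2 and 127; 1.27 ± 0.22, adjusted p = 0.00633). The share of the injury list called lay near the 16.1% of all genes called, and nothing particular to the list is read from it. The 9 macrophage markers summed to 41.4 and 19.4 scaled CPM at day 14, against 19.2 in the control, and 0 of them were called. Of other cell types' markers, 4 of 5 erythroid, 4 of 7 endothelial and 2 of 4 fibroblast and mural genes were lower at day 14, and 2 of 5 distal tubule genes were higher and 1 lower; their part in the results was not tested. Kap, which codes for the kidney androgen-regulated protein, stood at 70755 in the control, 79333 and 67194 at day 11 and 72949 and 61254 at day 14, and was not called between days in the members. The Y-linked genes Ddx3y and Eif2s3y were detected in the members of all 7 libraries.

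By the same rule of size the largest day 14 rises were in Cish (36.5 and 70.5 scaled CPM; 4.53 ± 0.66, adjusted p = 0.00301), Hao2, the haem-binding gene Hebp1 (3.39 ± 0.78, adjusted p = 0.0188), G0s2, an inhibitor of lipolysis (9.19 in the control, 68.1 and 119 at day 14; 3.33 ± 0.37, adjusted p = 0.00112), and Cxcl12. In the control 6 members held the 13 Cish UMIs. The largest falls were in BC018473 (1 count at day 14; the control was 1984 times as high, 95% interval for counting error 355 to 78430), Gm26924 (2362 in the control, 303 and 175 at day 14), the haemoglobin genes Hbb-bt and Hba-a2, and Bcl6, a transcriptional repressor (108, then 27.2 and 3.66; lost without either day 11 library, adjusted p = 0.063 and 0.053). In the control 1 cell held 99.4% of the erythroid UMIs, and without cells rich in other markers Hba-a2 and Hbb-bt were higher at day 14 (3.62 and 5.23).

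Mitochondrial transcripts moved in both directions. At day 11, 6 of 15 rose and 4 fell, and at day 14, 9 rose and 2 fell. Their sum was lower at both days, with 248920 scaled CPM in the control, 174510 and 119790 at day 11 and 162340 and 166780 at day 14. The oxidase subunit mt-Co1 stood at 6636 scaled CPM in the control and 12682 and 15909 at day 11 (1.11 ± 0.17, adjusted p = 0.00219), while mt-Nd6, the subunit coded on the light strand, stood at 726, 348 and 326 (-1.11 ± 0.15, adjusted p = 0.0014). The ribosomal RNA mt-Rnr1 was at 13302 in the control and 2523 and 2055 at day 14 (-2.54 ± 0.36, adjusted p = 0.00285). The rule on mitochondrial share limits these values from above.

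**Figure D4:**
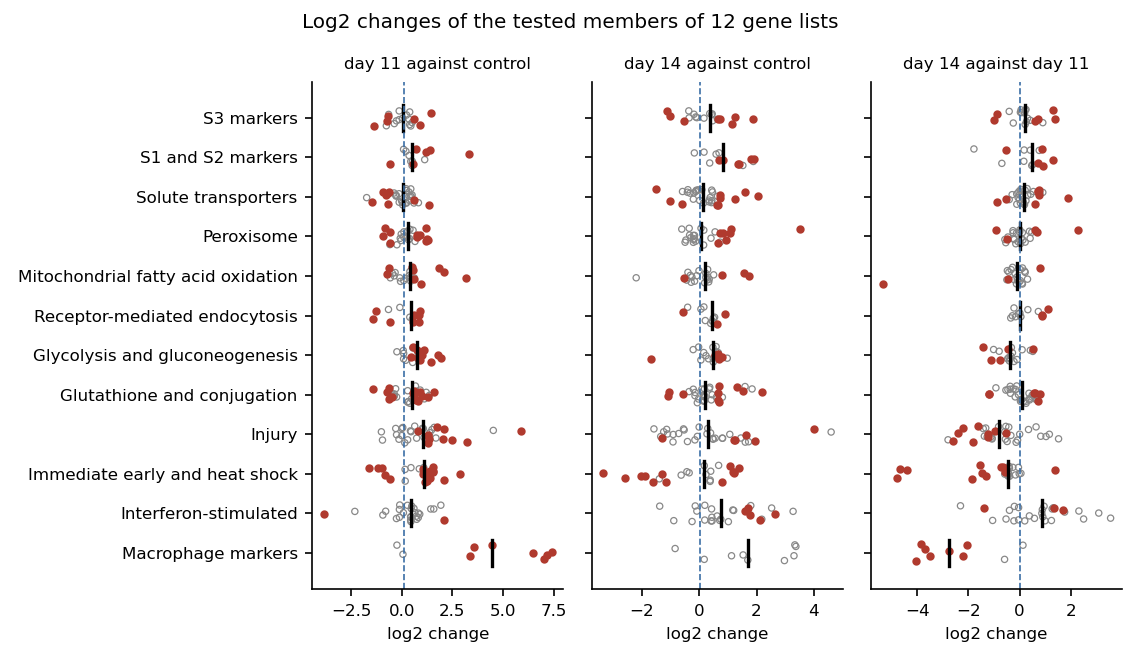
Log2 change (horizontal axis) of every tested gene of 12 gene lists in the Slc7a13-gated cells in 3 comparisons; filled red points passed the test, open grey ones did not, black bars are list medians and the dashed blue line is the median of all genes. Injury genes lie to the right of the line at day 11 (median 1.06) and closer to it at day 14 (median 0.30), while glycolysis genes have medians of 0.77 and 0.49.

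Between days 11 and 14, where both groups have 2 libraries, 10 of 23 immediate early and heat shock genes fell, and Slc22a6 and Lrp2 rose. Of 31 solute transporters 6 rose and 2 fell (median 0.16). Of all genes 12.1% were called, 4.5% higher and 7.57% lower at day 14, with a median of 0.00. In the immediate early and heat shock list 1 gene rose (median -0.45). Hspa1a dropped from 218 and 179 to 7.79 and 6.41 scaled CPM (-4.78 ± 0.20, adjusted p = 5.83e-06), and Fos from 400.5 and 514 to 169 and 198 (-1.32 ± 0.16, adjusted p = 0.00128). The 2 days did not overlap in either gene, which the rule of size required of Hspa1a. In the cells without Slc7a13, Hspa1a stood at 397 and 354 CPM at day 11 and 52.6 and 40.7 at day 14, so that the difference was not limited to the members. Of 33 injury genes 0 rose and 9 fell (median -0.82, or -0.95 with bounds). Gdf15, a stress-induced growth factor, fell from 74.5 and 85.6 to 26.7 and 18.3 (-1.81 ± 0.20, adjusted p = 0.000872). Beside them 7 of 9 macrophage, 4 of 5 erythroid, 3 of 5 podocyte, 2 of 7 endothelial and 2 of 4 fibroblast and mural markers fell. Erythroid markers summed to 4058 and 757 scaled CPM at day 11 and 88.0 and 78.2 at day 14, macrophage markers to 143 and 112 and to 41.4 and 19.4. In the first day 11 library 1 cell held 35.7% of the erythroid UMIs and the top 5 cells 79.3%. In the second 1 cell held 22.2%. An erythroid UMI was held by 63.1% and 59.5% of the day 11 members. The part of these markers' cells in the falls was not tested.

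From day 11 to day 14, 3 of 12 endocytosis genes rose and 0 fell. Lrp2 went from 754 and 644 to 1306 and 1230.0 scaled CPM (0.86 ± 0.13, adjusted p = 0.00308; 0.064 without the second day 11 library). Cubn went from 54.2 and 45.2 to 107 and 104 (1.10 ± 0.16, adjusted p = 0.00256; 0.06 without it). Clcn5 went from 49.5 and 41.7 to 84.2 and 81.2 (0.87 ± 0.16, adjusted p = 0.00772; 0.11 without it and 0.0517 without the first day 14 library). No library of day 14 overlapped one of day 11 for these genes, which was not set beside a share over all genes. Each call was lost without the second day 11 library.

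Of 19 S3 markers, 4 rose from day 11 to day 14 and 2 fell. Slc22a6 rose by 0.70 ± 0.13 on the log2 scale (adjusted p = 0.00624), a call lost without either day 11 library (adjusted p = 0.063 and 0.069). Cyp7b1 went from 127 and 73.6 to 249 and 238 scaled CPM (1.30 ± 0.22, adjusted p = 0.0051), and Akr1c21 fell from 1644 and 1627 to 763 and 892 (-0.98 ± 0.13, adjusted p = 0.00163). Gpx4, the lipid peroxide reductase, fell from 1249 and 1303 to 589.8 and 533 (-1.18 ± 0.13, adjusted p = 0.00085), and Gstp1, a glutathione transferase, from 366 and 378 to 158 and 170.2 (-1.18 ± 0.13, adjusted p = 0.000939). The largest falls beside Hspa1a were in BC018473, Hba-a1, Hba-a2 and Hbb-bt, and the largest rises in Cwc22, Cxcl12, Hao2, Slc15a2 and Gm20417. H2-K1, Cwc22 and Slc15a2 rose with the library split (1.70 ± 0.15, 3.26 ± 0.20 and 2.18 ± 0.19, adjusted p = 0.000481, 6.74e-05 and 0.000413). 

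At day 4, 150 members were left, with no replicate, and the values are set beside the control without a test. They held S3 markers at a summed 18798 scaled CPM, against 18753 in the control. Slc22a7 was at 14.7 (9 counts) against 212 and Cyp7b1 at 4.91 against 156, whereas Napsa was at 1327 against 1174 and Slc22a6 at 1166 against 883, so the marker list did not move as a unit. Among genes of at least 200 CPM in either library, the widest gaps upward were Lyz2 (312 against 0.173), Lgals3bp (293 against 1.21, 241 times as high), the interferon gene Ifi27 (340.3 against 9.02, 37.7 times), Spp1 (639.6 against 36.8, 17.4 times) and Hao2 (1135 against 71.4, 15.9 times). Downward they were Myo5a, a motor protein (27.8 against 423), Slc22a7, mt-Rnr1, Gm20594 and Gm26924. Injury genes summed to 2830 scaled CPM against 650.4, interferon genes to 4469 against 511 and macrophage markers to 517 against 19.2. B2m and H2-K1 made up most of the interferon sum in both libraries, with 339 and 48.0 in the control. Both genes follow the library split, which day 4 against the control crosses. The part of that split in these sums cannot be told apart from the day. A macrophage marker UMI was held by 42.7% of day 4 members and 7.50% of control members, and 60.7% of the Lyz2 UMIs lay in 1 cell.

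The second day 7 library had 41 members. Their S3 markers summed to 12513 scaled CPM, the lowest of the 7 libraries, with Cyp4b1 at 2245, Slc22a7 at 24.7 and Odc1 at 207. Injury genes summed to 4515, and Spp1 reached 1831 and Clu, clusterin, 533, but 55.8% of the Spp1 UMIs and 70.4% of the Clu UMIs came from 1 cell each. Macrophage markers summed to 637, and 63.4% of the members held such a UMI. Against this library, 0.961% of genes were called at day 11, 0.721% higher and 0.24% lower, with a median of 0.26. They included Cyp4b1, which rose to 5456 and 5791 (1.32 ± 0.16, adjusted p = 0.0158), Gpx4 (1.30 ± 0.18, adjusted p = 0.0197), and, lower, B2m (-1.95 ± 0.26, adjusted p = 0.0184) and Clu (-2.92 ± 0.35, adjusted p = 0.0158). The largest rises were in Tmem238 and Id1, which had 0 counts at day 7 (at least 3.95-fold and 2.91-fold higher at day 11, against a floor of 3 counts), BC021785, Hspa1a and Dynlt1c, and the largest falls in Cwc22, Clu, Lyz2, H2-K1 and Hao2. Of the injury list 0 of 33 rose and 5 fell (C3, Clu, Lcn2, Tmsb10, Vcam1), and of the S3 markers 2 of 19 rose. In endothelial-marker cells outside the rule Cyp4b1 stood at 373 CPM in the second day 7 library and 1780 and 1546 at day 11. Without the first day 11 library 0 genes were called and without the second 6, and Cyp4b1, Gpx4, B2m and Clu lost their calls under both.

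Changes of the members were then set against those of the convoluted cells of the same libraries, with a term for each library. The difference in the day 11 change was called for 0.898% of 11248 genes, 0.418% higher in the members and 0.48% lower, and the difference in the day 14 change for 2.18%, 0.738% higher and 1.44% lower. The median differences were -0.04 and -0.07. Gatm was among them. It stood at 89.1, 207, 198, 269 and 394 scaled CPM in the members of the control, day 11 and day 14 libraries, and at 2452, 2379.6, 1742, 1601 and 1979 in their convoluted cells. The members' change was larger by 1.46 ± 0.14 at day 11 (adjusted p = 3.48e-07) and by 2.33 ± 0.14 at day 14 (adjusted p = 7.79e-13). Members remained below convoluted cells in each library. Endothelial-marker cells outside the rule had 204 CPM in the control, 197 and 152 at day 11 and 234 and 272 at day 14, without TMM scaling. The members' control and day 11 levels lay near or below that background, so how far the gap between segments narrowed was not settled. Gatm lies on chromosome 2 at 122594467 to 122611303 (minus strand).

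Hao2 crossed over. In the members it stood at 75.3 in the control, 197 and 164 at day 11 and 569 and 1162 at day 14, and in convoluted cells at 182, 149, 116, 366 and 814. The change from the control was larger in the members by 1.72 ± 0.18 at day 11 (adjusted p = 5.46e-07) and 1.84 ± 0.16 at day 14 (adjusted p = 3.43e-09).

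At day 14 Acsm3 and Kap kept more of their control level in the members than in convoluted cells. Acsm3, a medium-chain acyl-CoA synthetase, stood at 2064 in control members and 1485 and 1391 at day 14, and at 312, 60.1 and 70.2 in convoluted cells (difference in change 1.72 ± 0.16, adjusted p = 9.37e-09; 0.98, adjusted p = 0.16, on thinned cells). Kap stood at 74622, 76793 and 64375 in the members and 32458, 15205 and 14621 in convoluted cells (1.04 ± 0.07, adjusted p = 8.4e-12). Cyp4b1 stood at 3859 in control members, 5746 and 6089 at day 11 and 5288 and 4664 at day 14, and at 2596, 2549 and 2884, and 1976 and 2252, in convoluted cells. Its day 11 level was thus above the control in the members and near it in convoluted cells, and the changes differed by 0.55 ± 0.11 at day 11 and 0.66 ± 0.11 at day 14 (adjusted p = 0.00615 and 0.000282). In endothelial-marker cells outside the rule Cyp4b1 stood at 818 CPM in the control and 1780 and 1546 at day 11. At day 14 it stood there at 1102 and 1115, all without TMM scaling. The part of free RNA in the Cyp4b1 differences was not tested. Napsa had a smaller rise in the members than in convoluted cells at day 11 (-0.79 ± 0.18, adjusted p = 0.0207; 0.21 without the second day 11 library), where its convoluted level is low (63.7, 189 and 225).

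Mitochondrial transcripts had a lower change in the members than in convoluted cells for 8 of 15 genes at day 11 and 12 of 15 at day 14; mt-Co1 differed by -0.48 ± 0.08 and -0.78 ± 0.08 (adjusted p = 0.000925 and 1.02e-07). The ferritin heavy chain gene Fth1 had lower changes in the members, -0.64 ± 0.08 and -0.61 ± 0.08 (adjusted p = 3.18e-05 and 2.57e-05). For B2m (-0.13 and -0.07), H2-K1 (0.08 and -0.63) and Lrp2 (0.02 and -0.07), no difference between the kinds was called.

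**Figure D5:**
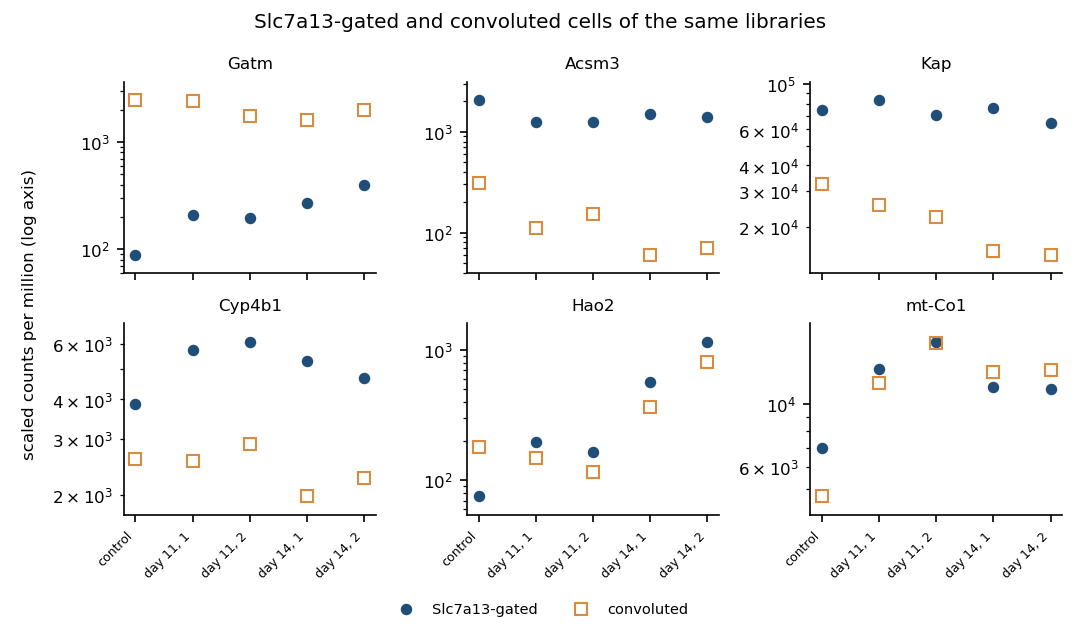
Scaled CPM (log axes) of 6 genes in Slc7a13-gated cells (filled circles) and convoluted cells (open squares) of the same 5 libraries. Gatm is lower in gated cells in each library but rises from 89.1 to 394, Hao2 crosses from below to above the convoluted cells, and Kap and Acsm3 keep more of their control level in gated cells than in convoluted ones.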

How the data were processed

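Droplet RNA libraries (Drop-seq) of mouse kidney cortex were deposited by the authors as tables of counts per gene and cell barcode, whole numbers and not normalized. Alignment used Bowtie2 2.2.7 and the build was mm10, per the submitters' processing notes; the strand of counting and the removal of doublets are not given in the sources used here, and no doublet caller was run. Members, gene lists and tests were chosen with earlier results of these data known.

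Counts of the members were summed per library; libraries with at least 10 members entered (effective totals 202660 to 6546700). Tests used edgeR 4.0.16 in R 4.3.3 (TMM, filterByExpr, quasi-likelihood F test, 2 residual degrees of freedom) and, for the difference from convoluted cells, 1 model of both kinds with a term per library. DESeq2 1.42.0 was an alternative. Python 3.11.15 with numpy 2.4.6, scipy 1.17.1 and pandas 2.3.3 did the rest, and matplotlib 3.10.9 drew the figures. The gene models script was tested on simulated data. Day 7 against the control had been planned as a test and was not tested, since only 1 day 7 library had enough members.

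Genes named are members of the lists, the 5 called genes per direction with the largest change (3 for the difference between kinds) whose mean log2 CPM was 5 or more and whose groups did not overlap, and for single libraries the 5 largest ratios per direction among genes of at least 200 CPM. Cwc22, Slc15a2, BC021785 and BC018473 were followed over all libraries after their values were seen. Statements that groups did not overlap, or lay above or below the control in each library, describe the values. No share over all genes was set beside them, and they add no support to a call. Of 116 named genes 113 matched the annotation, and 37 of them overlap a gene on the other strand. The 2 libraries of a day differed by more than sampling noise (chi-square per degree of freedom 13.1 at day 11 and 6.36 at day 14). Of 52735 distinct kept barcodes, 62 occurred in 2 libraries.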

Additional observations from a re-analysis of the deposited data

Results flagged for a closer look

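The change from the control differed between the Slc7a13-gated cells and the convoluted cells of the same libraries for the genes below, by the test of the difference itself (quasi-likelihood test of edgeR, p-values adjusted by Benjamini-Hochberg). Values are the change in the gated cells minus that in the convoluted cells, on the log2 scale. With cells thinned to 1000 UMIs, 12 of the 18 day 11 calls were lost and 2 changed sign. At day 14, 10 of 18 were lost and 2 changed sign. The median depth in the control was 4557 UMIs for gated and 1976.5 for convoluted cells.

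Among proximal genes at day 11 the differences were 1.46 for Gatm, 1.72 for Hao2, 0.49 for Kap, 0.55 for Cyp4b1, 0.51 for the steroid dehydrogenase Akr1c21, 0.44 for Cyp2e1, 1.25 for the organic anion transporter Slc22a8 and 1.23 for Slco1a1. Napsa had -0.79 and the neutral amino acid transporter Slc6a19 -0.97. Fth1 had -0.64 and mt-Co1 -0.48.

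At day 14 they were 2.33 for Gatm, 1.84 for Hao2, 1.04 for Kap, 0.66 for Cyp4b1, 1.72 for Acsm3, 0.67 for Cyp2e1, 0.77 for the aminoacylase Acy3, 0.77 for Atp11a, 0.44 for the glutathione-cleaving enzyme Ggt1, 0.88 for glucose 6-phosphatase G6pc, 1.09 for the dipeptidase Cndp2 and 2.36 for Eddm3b. Fth1 had -0.61 and mt-Co1 -0.78. Leaving out 1 library ended the day 11 calls of Akr1c21 (0.51 without the second day 7 library, adjusted p = 0.060; 0.47 without the first day 11 library, 0.058), Cyp2e1 (0.44, 0.074; 0.35, 0.18) and Napsa (-0.61 without the second day 11 library, 0.21), and the day 14 call of Ggt1 (0.37 without the second day 14 library, 0.23).

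Some of the differences sit in few cells. The haemoglobin genes had -5.92 (Hba-a1) and -5.29 (Hba-a2) at day 11 and -7.72 and -7.58 at day 14; 1 of the 1053 control members held 99.4% of the erythroid UMIs, and with cells rich in other markers left out Hba-a1 had -0.28 and -0.43. The water channel Aqp2 of the collecting duct had 2.99 and 2.48, and 1.19 and 0.70 with those cells left out, neither called. The kallikreins Klk1 and Klk1b5 had 2.92 and 2.97 at day 11; without the second day 11 library Klk1b5 had 1.49 and was not called. The fitted differences of Akr1c18, -10.08 at day 11 and -9.43 at day 14, depend on a control count of 0 in the convoluted cells; against a floor of 3 counts over that group, convoluted cells were at least 41.5-fold and 43.2-fold higher, and the members 1.69-fold and 2.75-fold.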

How the results depend on the processing

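Over all settings run for single genes, 3317 values kept direction and side of the threshold, 361 lost a call, 17 gained one and 21 changed sign. With cells thinned to 1000 UMIs, 1019 genes were called at day 11 and 415 at day 14 against the control, 886 between days 14 and 11, and 20 and 45 for the differences from convoluted cells. DESeq2 called 602, 220 and 355 in the first 3. Leaving out 1 library gave 1232 to 3173 (day 11 against control), 943 to 1848 (day 14 against control), 241 to 1371 (day 14 against 11), 0 to 344 (day 11 against 7), and 82 to 206 and 189 to 422 for the 2 differences; the lowest counts came without the second day 11 library (1232, 241), the second day 14 library (943) and the first day 11 library (0). Day 11 against day 7, with 112 calls, gave 72 with RLE scaling, 649 with no filter on low counts, 235 with only the 2 groups, 68 and 453 with at least 3 and at least 1 Slc7a13 UMI, 66 without the top 5% of UMIs, 316 with Havcr1 cells kept and 11 without cells rich in other markers. The day 11 difference gave 171 with at least 3 UMIs and 155 without those cells. The cause of these shifts was not tested.

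The share of members in the control was 19.0% at a mitochondrial limit of 25%, 13.4% and 23.7% with at least 3 and at least 1 Slc7a13 UMI and 7.58% thinned. Day 4 gave 1.78%, 4.05%, 3.60% with Havcr1 cells kept and 3.65% thinned. Day 1 gave 0.224% with at least 1 UMI and 0.252% with Havcr1 cells kept, and day 2 0.563% with at least 1 UMI. The means were 13.5% and 32.8% at day 11 and 17.9% and 28.75% at day 14 with at least 3 and at least 1.

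Changes of sign were Slc22a6 at day 11 (-0.0068 with RLE scaling, -0.0067 with DESeq2, -0.027 with only the 2 groups, and -0.012 to 0.084 with 1 day 11 library left out), and at day 14 without the top 5%, thinned and without cells rich in other markers Hba-a2 (4.08, 6.62, 3.62), Hbb-bt (4.94, 6.35, 5.23) and Tmsb10 (0.49, 1.18, 0.28). Lcn2 had 3.04 between days 11 and 7 thinned, and Clu 0.085 between days 14 and 11 with at least 1 UMI. The day 11 difference had 1.59 (Hba-a1) and 1.53 (Hba-a2) without the top 5% and 4.64 and 4.76 thinned, and the day 14 difference 3.56 and 3.34 thinned.

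With the replicate block 98 genes were called between days 11 and 7 and 1515 between days 14 and 11; library numbers are only shared labels, and the deviations of same-numbered libraries correlated at 0.139 over 4026 genes. A limit of 50 members and leaving out the second day 7 library gave no fit for day 11 against 7. Thinning, Havcr1 cells kept, mitochondrial genes left out and cells rich in other markers left out were chosen after seeing the data.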
